A study of Homo sapiens with 2 samples.

Results

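The glycosyltransferase and GPI anchor genes described here are the enzymes and enzyme subunits that assemble N-glycans, O-glycans, glycolipids, heparan sulfate and glycosylphosphatidylinositol (GPI) anchors. They were chosen by symbol: every gene with values whose symbol starts with ST3GAL, ST6GAL, ST8SIA, B3GALT, B4GALT, B3GNT, GALNT, MGAT, FUT, EXT, ALG or DPM, or is PIG followed by 1 or 2 letters. PIGR, an antibody receptor, and symbols that join 2 gene names were left out. This gave 83 of the 11511 genes that had a symbol and values in both libraries. Gene expression was measured by RNA-seq of total RNA from Hep3B cells, a human line long established from a hepatocellular carcinoma. A library of untreated cells served as the control, and the other library came from cells given A4368, a compound that the labels give by this code alone, for 24 h at 25 µM. Both cultures were kept in DMEM with serum. With 1 library per group there was no replicate, so every difference below is one between these libraries, and no p-value or error could be given.

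All glycans built by these enzymes start from activated sugars. An N-glycan precursor is put together on dolichol, first on the cytosolic face and then in the lumen of the endoplasmic reticulum (ER), and is transferred whole to a new protein. It is trimmed and, in the Golgi, rebuilt with branches that carry galactose, fucose and sialic acid. GPI anchors are glycolipids made in the same ER membrane and attached to the carboxyl end of proteins such as the glypicans and CD59. Hepatocytes secrete most plasma proteins, and many of these, though not albumin, carry sialylated N-glycans.

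Levels are given as FPKM, the number of sequenced fragments per kilobase of a gene's transcripts, scaled to the fragments mapped in that library. A ratio is log2((A4368 FPKM + 1)/(control FPKM + 1)), so that 0 means equal values and a positive number a higher value with A4368. Where a fold is given, it divides the deposited values as they are, which makes it wider than the log ratio for genes at low level. Genes were kept from a mean of 1 FPKM upward, 11238 in all, and the 83 glycan genes were all among them. Their means ran from 1.17 FPKM for B3GNT8 to 143 FPKM for GALNT1. Their median level was 11.7 FPKM in control cells and 11.04 FPKM after A4368, beside 13.9 and 14.1 FPKM for all kept genes. The cells carried the markers of their labelled type: all 11 hepatocyte and hepatoma markers had values, among them ALB at 9183 and 8930 FPKM and AFP at 368 and 295 FPKM in the control and A4368 libraries. Of markers of other cell types, 0 of 5 endothelial genes, 1 of 7 fibroblast genes and 3 of 6 leukocyte genes had values, and all 4 were lower with A4368. LUM had 17.9 FPKM in control cells and 11.9 FPKM after A4368 (ratio -0.55), LYZ 17.6 and 9.48 FPKM (-0.83), CD68 29.98 and 27.9 FPKM (-0.10) and CD14 2.50 and 2.46 FPKM (-0.01). Their part in the results was not tested. Read depth is unknown, and in bulk RNA a smaller share of cells with a transcript and less transcript per cell cannot be told apart.

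Glycan genes differed little between the libraries. At the 1.5-fold limit on the ratio scale (0.585), 1 of 83 was higher with A4368 (1.20%, beside 1.08% of all kept genes) and 4 were lower (4.82%, beside 2.12%). At the 2-fold limit, 1 was higher and 1 lower, beside 0.116% and 0.436% of all kept genes. ST3GAL3, a sialyltransferase, was the gene above the limits. PIGY, GALNT4, B3GNT3 and ST3GAL5 were those below, PIGY alone by more than 2-fold on this scale. PIGY and GALNT4 share most of their sequence with another gene, and the value of such a gene depends on how its reads were divided. Sharing was also counted over all other genes of the annotation. By that count 77 glycan genes share less than 50% of their sequence, and 2 of these were below the limit (2.60%). Sharing was not computed for all kept genes, so this percentage has no matching background. Inside the limit, the values nearest to it on the low side were ST6GAL1 at -0.52, B4GALT5 at -0.48, B3GALT4 at -0.48 and PIGL at -0.44. On the high side, the next values after ST3GAL3 were EXT2 at 0.37 and FUT11 at 0.36, well inside the limit.

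**Figure D1:**
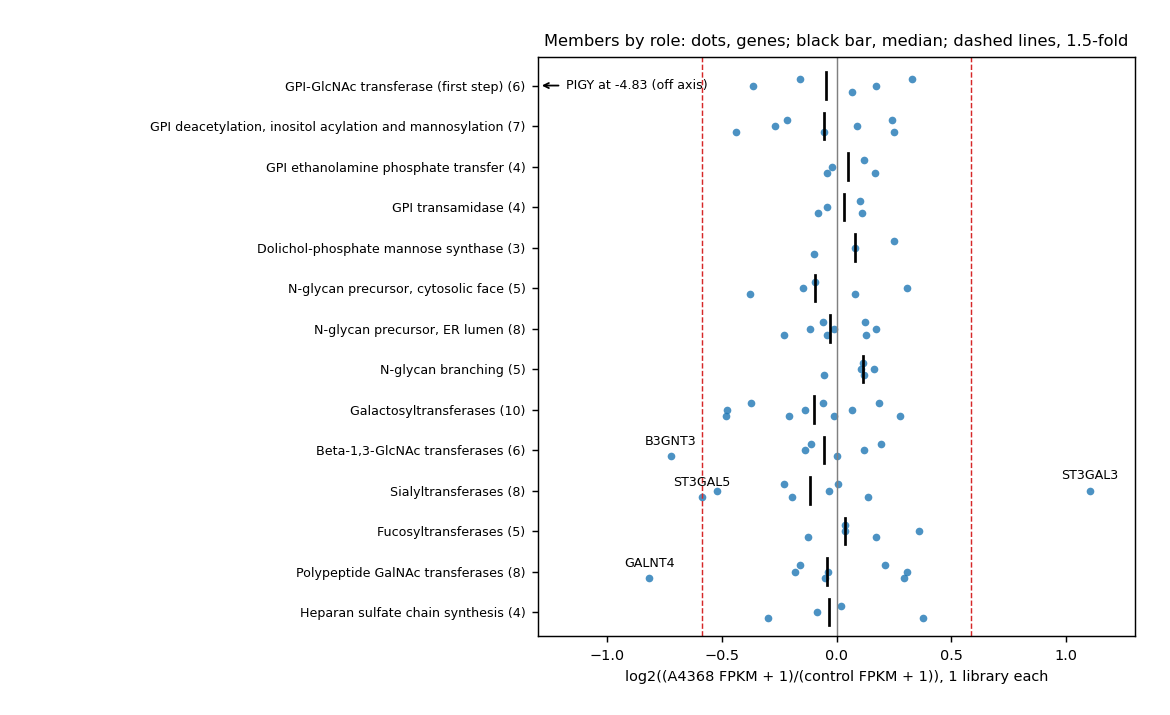
Ratio of each of the 83 glycan genes by role, with the number of genes in parentheses. Dots are genes, black bars are medians and red dashed lines mark 1.5-fold; most dots lie within the lines, ST3GAL3 stands to the right at 1.10, and GALNT4 (-0.82) and B3GNT3 (-0.72) to the left, with PIGY (-4.83) off the axis.

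The set as a whole had no common direction. The ratio was above 0 for 39 of the 83 genes (47.0%, beside 52.0% of all kept genes) and below 0 for 44, with a median of -0.02 beside 0.01 for all kept genes. When the libraries were brought to equal sums with the 50 highest genes set aside, which moved the median of all kept genes up by 0.05, and is called rescaling below, the split turned to 47 higher and 36 lower (56.6% higher, beside 60.9% of all kept genes). Within 1.25-fold lay 68 of the 83 genes, 81.9% beside 84.9% of all kept genes.

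The spread of the ratios, with PIGY left out, was close to that of all genes at the same level. Without PIGY the SD of the ratios over genes was 0.27, beside 0.26 for all kept genes. PIGY and the glycan genes were not taken out of all kept genes, so the sides were not treated alike. At a mean of 20 FPKM or more, 25 of 25 glycan genes lay within 1.5-fold and their SD was 0.19, beside 0.20 for all genes at that level. Between 5 and 20 FPKM the SD was 0.28 for 37 glycan genes without PIGY, beside 0.25 for all genes with PIGY included. Under 5 FPKM it was 0.30 for 20 genes, beside 0.34, and 17 of the 20 lay within 1.5-fold. The lowest class holds ST3GAL5, GALNT4 and B3GNT3. Over all genes, the share past 1.5-fold in either direction was 1.53% in the highest class, 2.98% in the middle class and 6.50% in the lowest.

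**Figure D2:**
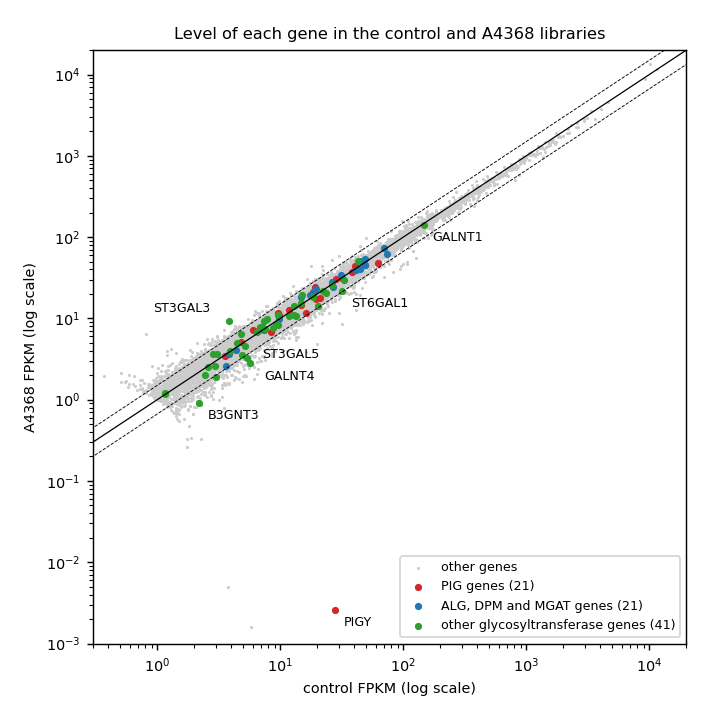
FPKM in the A4368 library against FPKM in the control, both on log axes. Each point is a gene, grey for the other genes with values, and values below the start of an axis are not drawn; the solid line marks equal values and the dashed lines a plain 1.5-fold; PIGY lies far below all other coloured points, and ST3GAL3 is the coloured point farthest above the lines.

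The first step of GPI synthesis moves N-acetylglucosamine (GlcNAc) onto phosphatidylinositol and needs an enzyme complex of PIGA, its catalytic subunit, with PIGC, PIGH, PIGP, PIGQ and PIGY. PIGY was the lowest of all 11238 ratios. Its value was 27.6 FPKM in control cells and 0.00259 FPKM after A4368, which amounts to a listing at 0. PIGY cannot be read alone, because the messenger RNA of PYURF carries the reading frame of both proteins. In GENCODE release 29 (GRCh38, chromosome 4), the PIGY frame of 216 bases lies whole within the 1361-base PYURF transcript and begins 98 bases after the end of the PYURF frame of 345 bases. The first 30 bases of the PIGY frame are shown from both transcripts to make the overlap visible, with the start codon of PIGY in capitals.
PIGY: ATGtttctgtctcttcctacgttgactgtt
PYURF: ATGtttctgtctcttcctacgttgactgtt
These stretches are identical, as are all 31-base words of the PIGY transcript (100% shared). PYURF, whose own frame codes for a small mitochondrial methyltransferase partner, had 55.8 FPKM in control cells and 68.0 FPKM after A4368. It was therefore 1.22-fold higher while PIGY was at 0. The sum of both symbols was 83.4 FPKM in control cells and 68.0 FPKM after A4368, 1.23-fold lower (ratio -0.29). PIGY held 33.1% of that sum in the control. Summed in this way, the pair lay within the 1.5-fold limit. FPKM divides by transcript length, and the GENCODE transcripts have 217 bases for PIGY and 1361 for PYURF. The sum therefore still depends on how reads were divided, and the direction of the pair cannot be read from it. PIGY was 1 of 7 kept genes listed under 0.01 FPKM in 1 of the libraries, of which 4 were at that level with A4368 and 3 in the control.

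The other subunits of the complex stayed within 1.5-fold and split in direction. PIGC, at 62.2 FPKM the most abundant subunit in the control, had 48.1 FPKM with A4368, a ratio of -0.36. PIGH went the other way, with 19.0 and 24.1 FPKM (0.33). PIGP had 19.5 and 17.3 FPKM, PIGQ 18.5 and 21.0 FPKM, and PIGA 4.82 and 5.09 FPKM. The catalytic subunit thus had the lowest transcript level of its complex in the control.

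The next steps remove the acetyl group, acylate the inositol and add mannoses. Of these 7 genes, 3 were higher and 4 lower, with a median of -0.05. PIGL, the deacetylase, was farthest from 0, with 16.2 FPKM in control cells and 11.7 FPKM after A4368 (-0.44, 1.39-fold lower). PIGW, the inositol acyltransferase, had 21.0 and 17.9 FPKM (-0.22). PIGM adds the first mannose and PIGX stabilises it. PIGM had 6.65 and 7.13 FPKM (0.09) and PIGX 9.62 and 11.6 FPKM (0.24). PIGV, which adds the second mannose, had 5.97 and 7.28 FPKM (0.25). PIGB, for the third, was on the other side with 8.42 and 6.82 FPKM (-0.27). PIGZ, for a further mannose that only some anchors carry, had 3.58 and 3.42 FPKM. Neighbouring steps of the same pathway therefore lay on both sides of 0.

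The ethanolamine phosphate transferases PIGN, PIGO and PIGG and their partner PIGF had ratios from -0.04 for PIGG to 0.17 for PIGN, with 9.72 and 11.1 FPKM for PIGN. PIGF had 28.3 and 30.8 FPKM, PIGO 14.7 and 14.5 FPKM, and PIGG had 31.9 FPKM in the control. All 4 ratios were above 0 after rescaling, against 2 as deposited. The GPI transamidase cuts the carboxyl end of the protein and joins it to the anchor. Its subunits PIGK, the catalytic one, PIGS, PIGT and PIGU together had 140 FPKM in each library. PIGS had 40.8 and 43.9 FPKM, PIGT 48.5 and 45.7 FPKM, PIGU 38.6 and 37.4 FPKM, and PIGK 11.7 and 12.7 FPKM. PIGK had the lowest transcript level of these 4 subunits in both libraries.

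**Figure D3:**
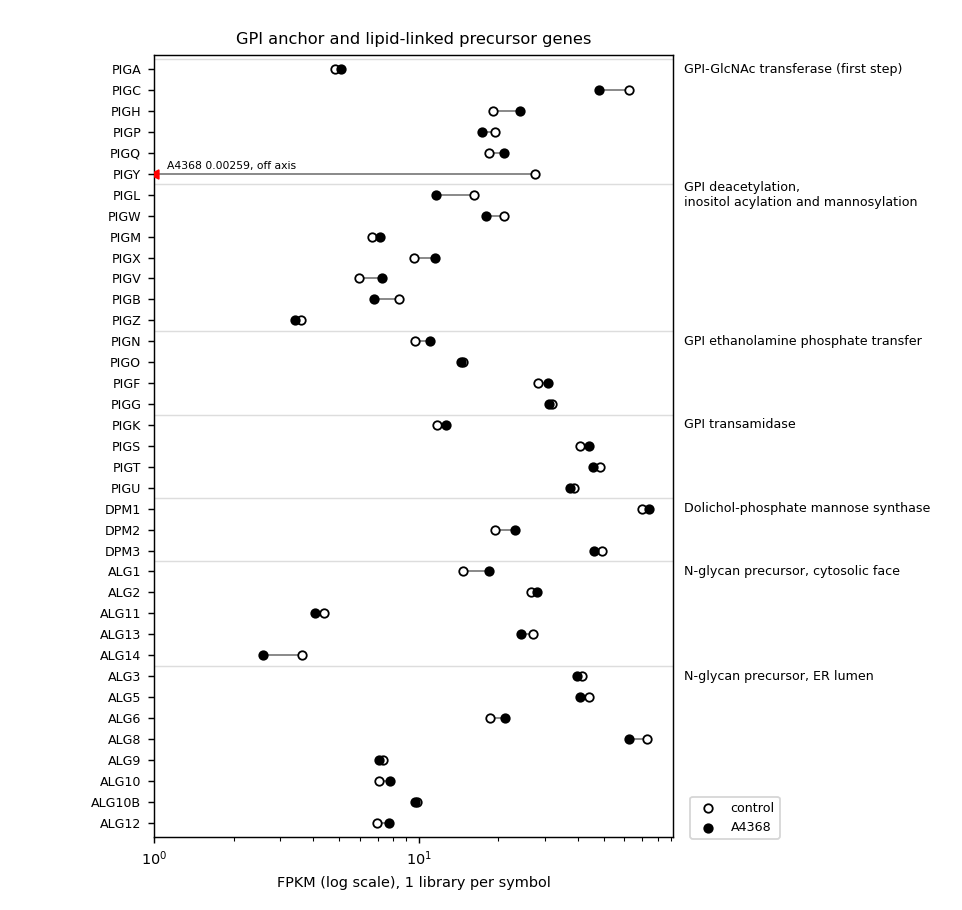
FPKM (log axis) of the GPI anchor genes, the dolichol-phosphate mannose synthase and the N-glycan precursor genes in the control (open circles) and A4368 (filled circles) libraries. Circles of a pair lie close together except for PIGY, whose value with A4368 (0.00259) is off the axis; ALG14, PIGL and PIGC with A4368 lie to the left of their control circles and PIGH to the right.

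Dolichol-phosphate mannose feeds GPI anchors, N-glycan precursors and other mannose transfers in the ER. DPM1, the catalytic subunit of its synthase, had 70.1 FPKM in control cells and 74.0 FPKM after A4368, the highest of the 3 subunits in each library. DPM2, which also binds the first GPI enzyme complex, had 19.4 and 23.2 FPKM (0.25), and DPM3, the membrane tether of DPM1, 49.3 and 45.9 FPKM (-0.10). The 3 subunits had a median of 0.08.

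Genes of the N-glycan precursor were within 1.5-fold at every step. On the cytosolic face, ALG13 and ALG14 form the enzyme that adds the second GlcNAc. ALG14 had 3.63 FPKM in control cells and 2.57 FPKM after A4368 (-0.38), while its partner ALG13 had 27.1 and 24.4 FPKM (-0.15). ALG1, which adds the first mannose, had 18.4 FPKM with A4368 against 14.7 FPKM in the control (0.31). ALG2 had 26.5 and 28.1 FPKM and ALG11 4.40 and 4.06 FPKM. Of these 5 genes, 2 were higher and 3 lower.

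In the ER lumen, 3 genes were higher and 5 lower as deposited, and 5 higher and 3 lower after rescaling. ALG8, a glucosyltransferase and the most abundant of them, had 73.2 FPKM in control cells and 62.4 FPKM after A4368, and its ratio of -0.23 was the farthest from 0. ALG6, which adds the glucose before it, had 18.6 and 21.1 FPKM (0.17). ALG5, which makes the dolichol-phosphate glucose used by both, had 44.2 and 40.8 FPKM, and the mannosyltransferase ALG3 had 41.4 and 39.7 FPKM. ALG9 and ALG12, the other lumenal mannosyltransferases, had 7.33 and 7.09 FPKM and 6.97 and 7.71 FPKM.

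The last glucose is added by ALG10 or by its near copy ALG10B. Their coding sequences (GENCODE release 29, both on chromosome 12) are 1422 bases long, differ at 33 bases (97.7% identity) and share an identical run of 148 bases. The 60 coding bases from position 1277 hold 5 of the differences, in capitals, more closely spaced than over the whole frame, and show what kind of stretch tells reads of the copies apart. Over whole transcripts, coding part included, 42.6% of the 31-base words of ALG10 occur in ALG10B, and 16.4% of those of ALG10B in ALG10. ALG10B has 11504 such words and ALG10 has 4416. Shared words are another measure than base identity, so these shares do not compare with the 97.7%. Counted over all other genes together, the shares are 68.2% for ALG10 and 17.8% for ALG10B.
ALG10: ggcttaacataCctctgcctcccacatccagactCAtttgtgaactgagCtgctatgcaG
ALG10B: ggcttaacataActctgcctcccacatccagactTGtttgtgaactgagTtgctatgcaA
ALG10 had 7.10 FPKM in control cells and 7.83 FPKM after A4368, and ALG10B 9.83 and 9.73 FPKM. Their sum was 16.9 and 17.6 FPKM (0.05), so the copies were nearly level apart and together.

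Branching of N-glycans in the Golgi begins with MGAT1, which opens the way from high-mannose to hybrid and complex glycans. MGAT1 had 44.9 FPKM in control cells and 50.5 FPKM after A4368 (0.16). MGAT2 had 31.3 and 33.7 FPKM, but shares 90.8% of its 31-base words with AL139099.1, which had no values. The branch-forming MGAT4A and MGAT4B had 17.6 and 19.1 FPKM and 49.0 and 53.4 FPKM. MGAT5, which adds the branch that favours long lactosamine chains, was the exception at 3.81 and 3.62 FPKM. As deposited, 4 of 5 genes were higher, beside 52.0% of all kept genes, and the median was 0.12. The summed level was 147 FPKM in control cells and 160 FPKM after A4368.

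Galactosyltransferases had a median of -0.10, with 3 of 10 higher as deposited and 4 of 10 after rescaling. Their summed level was 160 FPKM in control cells and 147 FPKM after A4368. B4GALT1, the main N-glycan galactosyltransferase in most cells, had 32.8 and 29.6 FPKM. B4GALT2 had 23.5 and 20.3 FPKM (-0.21) and B4GALT3 26.3 and 26.0 FPKM. B4GALT4 was close to level, with 22.4 and 21.4 FPKM. The lowest ratios belonged to B4GALT5, a lactosylceramide synthase with 20.2 and 14.2 FPKM (-0.48, 1.42-fold lower), and B3GALT4, which makes the ganglioside GM1 and had 3.01 and 1.88 FPKM (-0.48, 1.60-fold lower). B3GALT1 was also lower with A4368, with 4.86 and 3.53 FPKM (-0.37). B4GALT6, the other lactosylceramide synthase, was the highest of the class at 2.85 and 3.66 FPKM (0.28). B4GALT7 and B3GALT6, which build the linker of glycosaminoglycans, had 9.58 and 11.04 FPKM and 14.6 and 15.4 FPKM.

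B3GNT enzymes add GlcNAc to galactose and so extend lactosamine chains. B3GNT3, which extends O-glycans, had 2.17 FPKM in control cells and 0.921 FPKM after A4368 (-0.72, 2.36-fold lower). This was the 135th lowest ratio of the kept genes, at a level near the filter. B3GNT2, the main poly-lactosamine synthase, had 13.0 and 14.3 FPKM, and B3GNT5, which starts lacto-series glycolipids, 11.7 and 10.7 FPKM. B3GNTL1 had 3.08 and 3.67 FPKM, B3GNT9 5.14 and 4.59 FPKM, and B3GNT8 1.17 FPKM in each library. Of the 6 genes, 3 were higher and 3 lower.

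Sialyltransferases held the highest ratio among the glycan genes and 1 of the lowest. ST3GAL3, which caps N-glycan branches with sialic acid, had 3.84 FPKM in control cells and 9.39 FPKM after A4368. It was 2.45-fold higher, with a ratio of 1.10 that ranked 11th from the top of the 11238 kept genes. ST3GAL3 shares 15.2% of its 31-base words with other genes. ST6GAL1, the dominant sialyltransferase of liver N-glycans, was the most abundant of the class in both libraries. Its level was 32.0 FPKM in control cells and 21.9 FPKM after A4368 (-0.52, 1.46-fold lower), just inside the limit. ST3GAL5, which makes the ganglioside GM3 from lactosylceramide, had 5.40 and 3.27 FPKM (-0.59, 1.66-fold lower), just past it.

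The other sialyltransferases differed less. ST3GAL2, which acts on O-glycans and glycolipids, had 12.9 and 10.9 FPKM (-0.23). ST3GAL4 had 3.91 and 3.94 FPKM and ST3GAL6 4.43 and 4.97 FPKM. ST6GALNAC4 and ST6GALNAC6 had 2.60 and 2.52 FPKM and 2.46 and 2.02 FPKM. The summed level of the 8 genes was 67.5 FPKM in control cells and 58.9 FPKM after A4368, and ST6GAL1 made up 47.3% of it in the control and 37.2% with A4368. The other sialyltransferases of the list, among them all ST8SIA genes, had no values and were not analysed here.

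Fucosyltransferases were within 1.5-fold. FUT8, which adds the core fucose of N-glycans and is widely studied in liver cancer, had 6.52 FPKM in control cells and 6.72 FPKM after A4368. FUT11 had 4.83 and 6.47 FPKM (0.36, 1.34-fold higher) and FUT10 6.78 and 7.76 FPKM. FUT4, which makes Lewis-type fucose, was on the other side at 2.95 and 2.63 FPKM, and FUT2 had 1.16 and 1.22 FPKM. As deposited, 4 of the 5 ratios were above 0, beside 52.0% of all kept genes. Corrected for GC content and length, 3 were above 0 and FUT8 was at -0.0065.

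Polypeptide GalNAc transferases start mucin-type O-glycans by adding N-acetylgalactosamine to serine or threonine. GALNT1 was the most abundant of all 83 genes, with 146 FPKM in control cells and 141 FPKM after A4368, and held 61.9% and 59.6% of the class total of 236 FPKM in each library. GALNT2 had 43.2 and 50.1 FPKM (0.21). GALNT11 had 7.42 and 9.33 FPKM (0.30) and GALNT13 7.82 and 9.92 FPKM (0.31). GALNT3 had 8.70 and 7.68 FPKM, GALNT7 7.51 and 7.30 FPKM and GALNT10 9.51 and 8.27 FPKM. The even class total thus joined 3 higher and 5 lower genes as deposited, and 4 and 4 after rescaling.

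GALNT4, which prefers peptides that already carry GalNAc, was the class member farthest from 0. Its level was 5.69 FPKM in control cells and 2.80 FPKM after A4368 (-0.82, 2.03-fold lower), the 93rd lowest ratio of the kept genes. GALNT4 shares 93.2% of its words with the read-through gene POC1B-GALNT4, which lies on the same stretch of chromosome 12. Of the 1737 coding bases of GALNT4 (GENCODE release 29), the last 1629 occur unbroken in a coding transcript of that gene. The first 108 lie before this shared stretch. The 60 bases around this border are shown with the bases before the shared stretch in capitals.
GALNT4: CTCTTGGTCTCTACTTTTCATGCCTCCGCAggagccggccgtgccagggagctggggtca
POC1B-GALNT4 had 0.755 FPKM in control cells and 1.16 FPKM after A4368. The sum of both was 6.45 and 3.96 FPKM, 1.63-fold lower (-0.59), which is barely past the 1.5-fold limit as deposited and inside it when the ratios were centred on their median (-0.58) or rescaled (-0.55).

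Heparan sulfate chains are polymerised by EXT1 with EXT2. EXT2 had 14.9 FPKM in control cells and 19.6 FPKM after A4368 (0.37, 1.32-fold higher), whereas EXT1 had 9.19 and 8.59 FPKM. EXTL3, which starts the chain on its linker, had 13.5 and 10.8 FPKM (-0.30), and EXTL2 18.3 and 18.6 FPKM. The partners of the polymerase therefore lay on either side of 0, both within 1.5-fold.

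**Figure D4:**
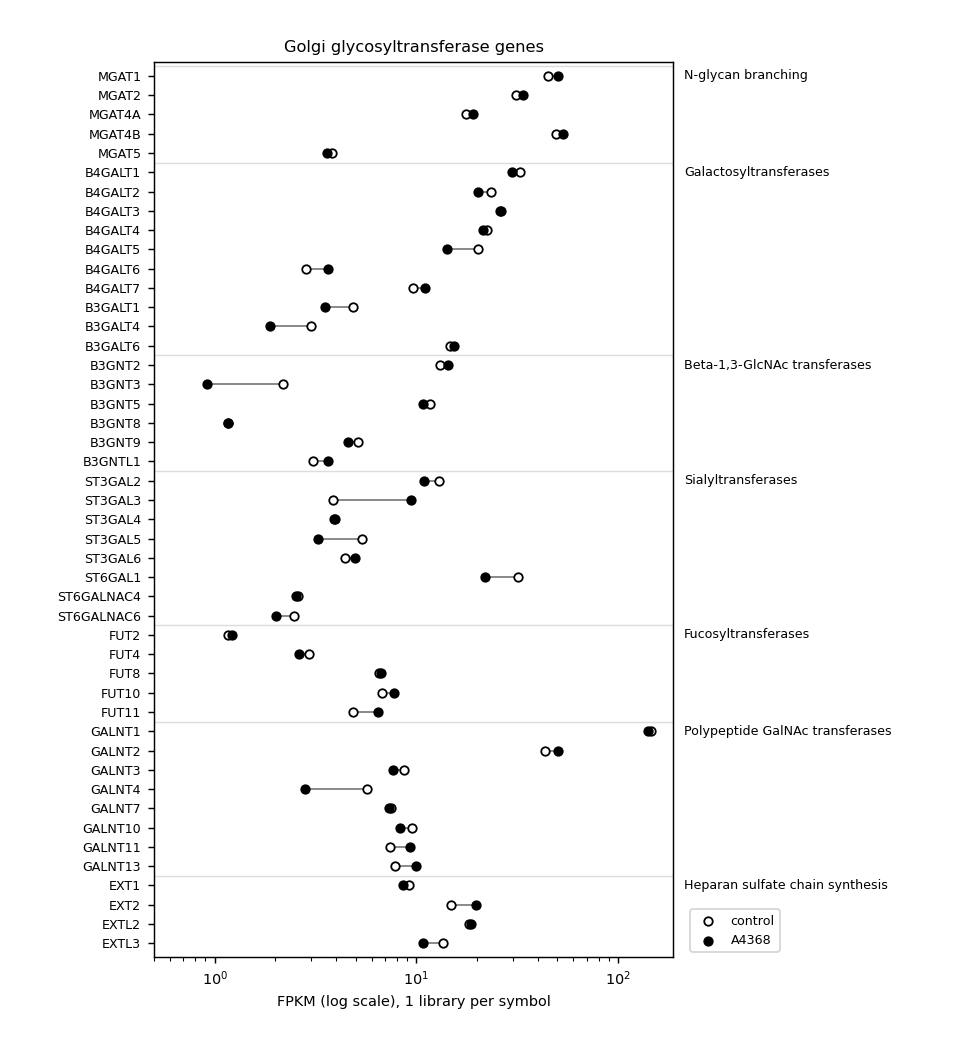
FPKM (log axis) of the branching, galactosyl, GlcNAc, sialyl, fucosyl and GalNAc transferases and the heparan sulfate polymerases in the control (open circles) and A4368 (filled circles) libraries. The longest gaps are those of ST3GAL3 to the right (3.84 and 9.39 FPKM) and of B3GNT3 (2.17 and 0.921 FPKM) and GALNT4 (5.69 and 2.80 FPKM) to the left.

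Other genes of the same pathways, which supply, transfer, trim and carry these glycans, were grouped in 9 lists. Of 116 kept genes, 0 were past 1.5-fold higher and 1 was past it lower, beside 1.08% and 2.12% of all kept genes. Their median ratio was 0.05, beside 0.01 for all kept genes. Ratios above 0 made up 63.8% as deposited, beside 52.0% of all kept genes, and 72.4% after rescaling, beside 60.9%. The exception in size was MFNG, a fringe enzyme that elongates O-fucose on Notch receptors, with 5.09 FPKM in control cells and 2.38 FPKM after A4368 (-0.85, 2.14-fold lower). The 16 other O-glycan enzymes to which it belongs had a median of 0.08.

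The oligosaccharyltransferase, which uses the precursor in the ER, was level, while most genes for dolichol and for trimming had ratios above 0. The 12 oligosaccharyltransferase subunits had a median of 0.01, with 7 higher and 5 lower. Its catalytic subunits STT3A and STT3B had 126 FPKM in each library and 37.1 and 37.7 FPKM, and TUSC3, an exchangeable subunit, was farthest from 0 with 30.5 and 40.9 FPKM (0.41). Of 8 genes for dolichol and the first precursor step, 6 were higher (median 0.10), with SRD5A3, which makes dolichol from polyprenol, at 14.2 and 17.6 FPKM (0.29). Among 10 trimming enzymes 9 were higher, with a median of 0.16. The Golgi mannosidase MAN1A2 led them with 7.48 and 10.2 FPKM (0.40). Of all kept genes, 52.0% had ratios above 0. Corrected for GC content and length, 7 of the 8 dolichol genes and 8 of the 10 trimming enzymes were above 0.

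Sugar supply showed ratios on both sides. Of 21 genes for nucleotide sugar synthesis, 14 were higher as deposited (median 0.05), beside 52.0% of all kept genes. Corrected for GC content and length, 13 were above 0. NANP, which frees sialic acid from its phosphate, had 3.62 and 5.11 FPKM (0.40). CMAS, which activates sialic acid, had 32.9 and 34.7 FPKM, and GNE, which starts its synthesis, 7.44 and 7.04 FPKM. Of 13 transporters 8 were higher (median 0.10), beside the same 52.0%. The GDP-fucose transporter SLC35C1 went against that count with 9.48 and 6.66 FPKM (-0.45, 1.42-fold lower).

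GPI handling after synthesis and the anchored proteins themselves differed in their counts as deposited, where 52.0% of all kept genes had ratios above 0. All 8 genes of attachment and remodelling had ratios above 0 as deposited (median 0.13). Rescaling raises every ratio, so it could not lower this count. Corrected for GC content and length, all 8 were above 0. PGAP3 (0.02), MPPE1 (0.02) and TMED2 (0.03) were near the median of all kept genes (0.01). PGAP1, which removes the inositol acyl chain, had 1.64 and 2.73 FPKM (0.50, 1.67-fold higher), and GPAA1, the remaining transamidase subunit, 114 and 128 FPKM (0.17). Of 19 kept genes for GPI-anchored proteins, 5 were higher and 14 lower (median -0.06). After rescaling 9 were higher and 10 lower (median -0.01), beside 60.9% of all kept genes higher. GPC3, a glypican and hepatoma marker, had 432 and 416 FPKM, CD59 138 and 125 FPKM, and MSLN 3.87 and 2.47 FPKM (-0.49). Genes for the glycosaminoglycan linker and heparan sulfate modification had the highest median of the lists (0.22, 7 of 9 higher). They were led by the linker enzyme B3GAT3 with 16.7 and 22.5 FPKM (0.41). Corrected for GC content and length, 6 of the 9 were above 0.

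**Figure D5:**
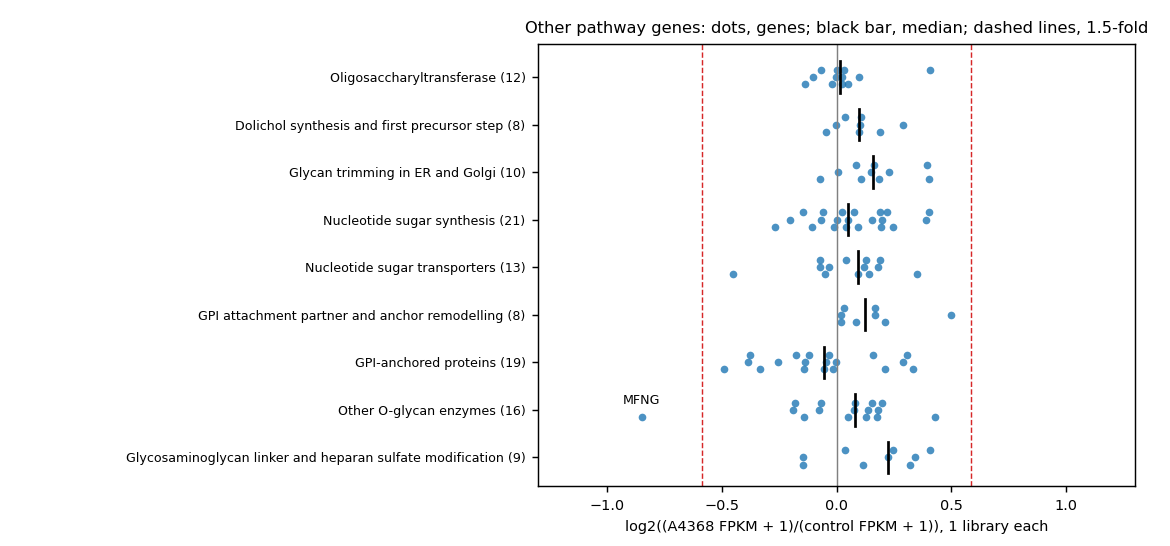
Ratio of each kept gene in the 9 lists of other glycan pathway genes, with the number of kept genes in parentheses. Dots are genes, black bars are medians and red dashed lines mark 1.5-fold; MFNG (-0.85) is the dot outside the lines, and the 8 genes of GPI attachment and remodelling all lie to the right of 0.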

How the data were processed

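For RNA selection, strandedness, vehicle and annotation: not given in the sources used here. Per the submitters' processing notes, reads were processed with TopHat2 2.0.12, Bowtie2 2.2.3 and Cufflinks on hg19. The table deposited by the authors names no unit, and its values were read as FPKM as Cufflinks estimates them. FPKM keeps no counts, so depth is unknown and no interval is given. Where genes overlap, Cufflinks assigns reads by likelihood. Among 24302 lines, 11511 had a symbol with values for both libraries, and no gene had a mean under 0.496 FPKM. The filter at a mean of 1 FPKM removed 273 genes.

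Ratios used a pseudocount of 1. The members and lists were chosen with earlier results of these data known. Named were glycan genes past 1.5-fold, up to 3 per role with the largest absolute ratio, the 2 per role with the highest mean, PIGY with PYURF, and in each other list the genes past 1.5-fold or else the 1 farthest from 0. Other genes were named after their values were seen. Alternatives were pseudocounts of 0.1 and 5, no filter or 5 FPKM, centring on the median of genes at 10 FPKM or more, and rescaling without the 50 highest genes. A correction for GC content and length in 20 bins, and a run without genes sharing at least 50% of their 31-base words, were added after seeing the data. Sequences came from GENCODE release 29 transcripts (GRCh38). Since the table's build differs, no coordinates are given. The procedure was tested on simulated data only for changes well past the limit in genes at 5 FPKM or more. The simulated noise was smaller than the spread of the ratios here, so that test does not show how small changes or low genes fare. Python 3.11.15, numpy 2.4.6, pandas 2.3.3 and matplotlib 3.10.9 were used.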

Additional observations from a re-analysis of the deposited data

How the results depend on the processing

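No result changed direction past the 1.5-fold limit under any alternative run. The count of glycan genes past 1.5-fold lower, 4 of 83 as reported (4.82%, beside 2.12% of all kept genes), was 1 of 83 with a pseudocount of 5 (1.20%, beside 0.694%) and 1 of 63 with the filter at 5 FPKM (1.59%, beside 1.60%). It was 2 of 77 (2.60%) once genes sharing at least 50% of their words were set aside, for which sharing was not computed over all genes. Past 2-fold, the count lower went from 1 of 83 (1.20%, beside 0.436%) to 2 of 83 with a pseudocount of 0.1 (2.41%, beside 0.908%) and to 0 of 77 without the sharing genes, and the count higher from 1 to 0 of 83 with a pseudocount of 5 (beside 0.0178% of all kept genes). ST3GAL3 ranged from 0.70 with a pseudocount of 5 to 1.27 with 0.1, past 1.5-fold throughout. ST3GAL5 was inside the limit when centred (-0.58), rescaled (-0.55) or given a pseudocount of 5 (-0.33), and that pseudocount also brought GALNT4 (-0.45), B3GNT3 (-0.28) and MFNG (-0.45) inside. With 0.1, B3GALT4 (-0.65), PGAP1 (0.70) and MSLN (-0.63) were past it. The median of the glycan genes ran from -0.02 to 0.03, and 6 of 23 role and list medians took the other sign in at least 1 alternative. The sum of GALNT4 and POC1B-GALNT4 was -0.69 with a pseudocount of 0.1 and -0.35 with 5. Neither this sum nor that of PIGY and PYURF was computed under the corrections for GC content, length and shared sequence. No paired analysis was possible because each group has 1 library. The unknown depth limits genes under 5 FPKM most.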

Other observations

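The steps of ganglioside synthesis lie in several of the groups above and were put side by side after their values were seen, with no test. UGCG, which makes glucosylceramide, had 10.2 FPKM in control cells and 9.49 FPKM after A4368. The next enzymes had lower values with A4368 for B4GALT5 (ratio -0.48) and ST3GAL5 (-0.59) and a higher value for B4GALT6 (0.28). B4GALNT1, which turns GM3 into GM2, had 12.03 and 14.4 FPKM (0.24), and B3GALT4, for the step after it, was lower (-0.48). Successive enzymes of the pathway therefore did not share a direction.

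Of the genes that supply sialic acid, SLC35A1, which carries CMP-sialic acid into the Golgi, had 18.7 FPKM in control cells and 24.1 FPKM after A4368 (0.35). NANS, which condenses the sialic acid phosphate, had 26.7 and 29.8 FPKM (0.15). Beside the values of NANP, CMAS and GNE given above, 4 of these 5 supply genes were higher with A4368, beside 52.0% of all kept genes. The 7 sialyltransferases other than ST6GAL1 summed to 35.6 FPKM in control cells and 37.0 FPKM after A4368, and without ST3GAL3 as well the remaining 6 summed to 31.7 and 27.6 FPKM.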
